A study of Homo sapiens with 12 samples.

Results

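The 10 genes described here encode factors that transcribe histone genes or form the 3′ end of histone mRNA: SLBP, NPAT, CASP8AP2, LSM10, LSM11, ZNF473, CPSF2, CPSF3, SYMPK and CSTF2. They were chosen by name for that role, and all 10 were among the 55765 gene names of the RNA-seq count table and among the 18843 names with enough reads to test. The cells are labelled HEK293T, an embryonic kidney cell line with the simian virus large T antigen, while the growth protocol names HEK293. They received either siRNA against ERI2, an exonuclease related to the histone mRNA nuclease ERI1, or a control siRNA, at 50 nM, by lipid transfection repeated after 48 hours, with harvest 72 hours later. Each group had 3 RNA-seq libraries, given below in the order replicate 1, 2 and 3. Nothing in the labels says that replicates came from separate cultures, and p-values cover only the spread among the 3 libraries of a group, possibly a technical one. With a single ERI2 siRNA group and no rescue, off-target effects and ERI2 loss cannot be told apart. In bulk RNA, fewer cells that express a gene and less RNA per cell cannot be told apart either.

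Most histone proteins are made in S phase, from mRNAs that carry no poly(A) tail and end in a conserved stem-loop. SLBP binds that stem-loop, and the U7 small nuclear ribonucleoprotein (U7 snRNP), whose protein ring contains LSM10 and LSM11, pairs with a sequence downstream of it. A nuclease complex shared with the poly(A) machinery then cuts the RNA between them. ERI1, the closest studied relative of ERI2, binds the same stem-loop together with SLBP and trims or degrades histone mRNA.

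No difference between ERI2 siRNA and control siRNA passed the test for any of the 10 mRNAs. With p-values adjusted by Benjamini-Hochberg over all 18843 genes in edgeR's quasi-likelihood test, 0 of 10 passed at 0.05, against 8.54% of all genes tested (4.29% higher and 4.25% lower). Without adjustment the count was again 0 of 10, against 26.5% of all genes (13.4% higher and 13.1% lower), and DESeq2 and limma-voom each called 0 of 10, against 12.4% of the 16651 genes with an adjusted p in DESeq2 and 8.17% of the 18843 genes in limma-voom. The ERI2 siRNA and control siRNA libraries overlapped for all 10, while they did not overlap for 29.7% of all genes (14.1% higher and 15.6% lower). No difference between these genes and the rest was tested. The 95% intervals of the fold change, ERI2 siRNA over control siRNA, lay between 0.781 and 1.28 for all 10, so changes beyond that range fell outside every interval. The targeted gene ERI2 lay outside that range, with 34.6, 35.8 and 32.5 CPM (read counts relative to the TMM-scaled size of the library) in ERI2 siRNA libraries, against 54.4, 58.2 and 54.4 CPM in control siRNA libraries. ERI2 was thus at 61.5% of its control level (log2 fold change -0.70, SE 0.0762, adjusted p = 0.000683), a partial knockdown.

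**Figure D1:**
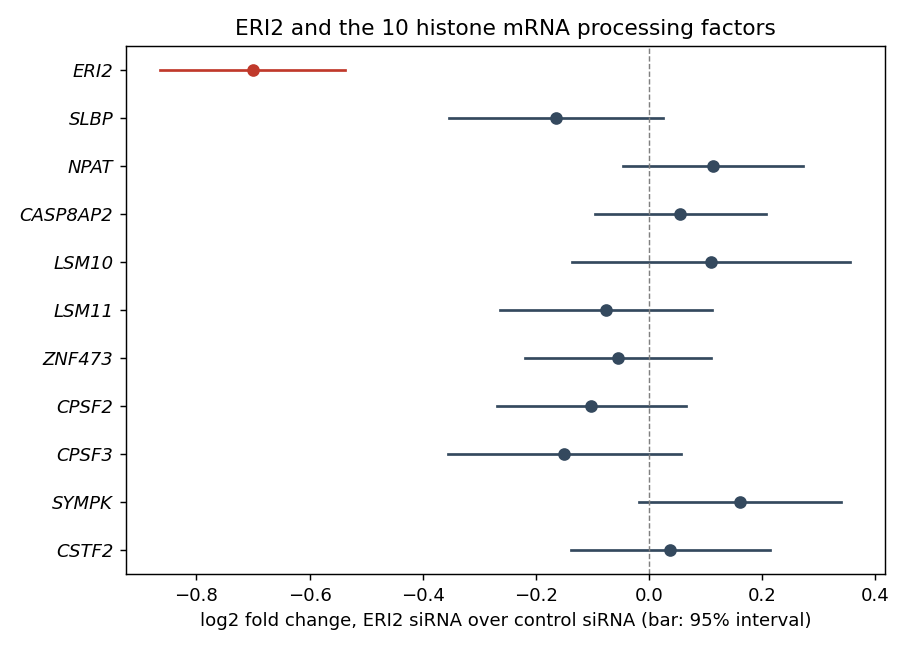
Log2 fold change of ERI2 and of the 10 histone mRNA processing factors, ERI2 siRNA over control siRNA (x axis), with 95% intervals from edgeR's quasi-likelihood fit of 3 libraries per group as bars. The interval of ERI2 lies left of 0, while those of all 10 factors include 0.

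For 9 of the 10 genes the RefSeq promoter table (GRCh38.p14) held a window of 300 bases, from 250 before to 50 after the start, and ZNF473 had none there. An E2F motif, the binding sequence of the cell cycle regulators that switch on S phase genes, was searched as TTTGGCGC, TTTCGCGC, TTTCCCGC or TTTGCCGC on both strands. It stood in 3 of 9 windows (CASP8AP2, CPSF3 and CSTF2) and in 3.3% of all 35116 windows. The CCAAT motif, searched as CCAAT on both strands, stood in 4 of 9 windows (CASP8AP2, CPSF2, LSM10 and NPAT) and in 34.6% of all windows. A match is a run of letters and no sign that a factor binds. The windows below are those with an E2F match and that of NPAT, which has starts of ATM upstream on the opposite strand. Capitals mark the E2F and CCAAT matches, in either orientation.
CASP8AP2: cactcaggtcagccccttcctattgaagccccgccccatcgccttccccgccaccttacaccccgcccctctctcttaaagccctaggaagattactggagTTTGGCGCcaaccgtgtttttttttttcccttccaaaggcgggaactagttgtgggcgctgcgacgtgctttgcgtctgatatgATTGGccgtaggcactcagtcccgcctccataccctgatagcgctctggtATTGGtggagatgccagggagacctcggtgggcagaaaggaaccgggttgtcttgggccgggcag
CPSF3: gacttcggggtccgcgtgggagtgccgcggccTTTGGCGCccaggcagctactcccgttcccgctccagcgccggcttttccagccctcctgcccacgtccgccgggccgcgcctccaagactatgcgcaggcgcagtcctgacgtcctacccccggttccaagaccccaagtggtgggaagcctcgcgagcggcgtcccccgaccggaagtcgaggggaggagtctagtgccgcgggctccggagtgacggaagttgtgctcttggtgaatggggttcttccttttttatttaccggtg
CSTF2: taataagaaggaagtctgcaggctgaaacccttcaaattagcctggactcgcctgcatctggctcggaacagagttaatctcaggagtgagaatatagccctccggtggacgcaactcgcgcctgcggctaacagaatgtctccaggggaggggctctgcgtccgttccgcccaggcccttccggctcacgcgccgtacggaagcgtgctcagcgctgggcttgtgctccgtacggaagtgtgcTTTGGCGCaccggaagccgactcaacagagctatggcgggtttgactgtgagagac
NPAT: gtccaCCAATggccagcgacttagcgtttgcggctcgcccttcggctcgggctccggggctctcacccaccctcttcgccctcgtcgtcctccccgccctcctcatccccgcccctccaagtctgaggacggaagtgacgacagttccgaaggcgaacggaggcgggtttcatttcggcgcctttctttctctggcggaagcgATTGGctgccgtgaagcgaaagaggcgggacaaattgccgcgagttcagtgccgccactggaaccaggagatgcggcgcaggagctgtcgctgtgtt
These windows lie at chr6:89829630-89829929 (CASP8AP2, plus strand), chr2:9423404-9423703 (CPSF3, plus strand), chrX:100820141-100820440 (CSTF2, plus strand) and chr11:108222589-108222888 (NPAT, minus strand). In all 3 E2F matches the letters were TTTGGCGC in the direction of the gene, starting at -149 in CASP8AP2, -218 in CPSF3 and -6 in CSTF2, counted from the start of the gene. The read counts were made on another build, hg19, so the windows give sequence context only. The 3 genes with an E2F match had log2 fold changes of 0.055 (CASP8AP2), -0.15 (CPSF3) and 0.037 (CSTF2), none of which passed the test.

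SLBP, the stem-loop binding protein, accompanies histone mRNA from cleavage through export and translation and is itself made mainly in S phase. Its mRNA was at 76.9, 68.8 and 66.7 CPM in ERI2 siRNA libraries, against 69.5, 85.0 and 83.8 CPM in control siRNA libraries (counts of 2428, 2318 and 2022, against 2444, 3145 and 2405). Replicates 2 and 3 of ERI2 siRNA were the lowest libraries and replicates 2 and 3 of control siRNA the highest, but control replicate 1 lay beside the ERI2 siRNA libraries, so the groups overlapped. The means were 70.8 ± 5.39 CPM after ERI2 siRNA and 79.4 ± 8.61 CPM after control siRNA (SD, n = 3 each; log2 fold change -0.17, SE 0.0882, 95% interval -0.35 to 0.024, adjusted p = 0.251 in edgeR's test). This was the lowest of the 10 log2 fold changes.

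NPAT is the coactivator that assembles at histone gene loci and is phosphorylated by cyclin E with CDK2 at the onset of S phase. It measured 105, 94.8 and 96.5 CPM after ERI2 siRNA and 87.6, 98.4 and 88.2 CPM after control siRNA. Control replicate 2 lay among the ERI2 siRNA libraries, and the log2 fold change of 0.11 (SE 0.0742, 95% interval -0.047 to 0.27, adjusted p = 0.356) did not pass. Starts of ATM, which encodes a DNA damage kinase, lie 429 and 687 bases from that of NPAT on the opposite strand in the RefSeq table. ATM was at 339, 365 and 363 CPM in ERI2 siRNA libraries, against 330, 322 and 301 CPM in control siRNA libraries. Its groups did not overlap, but its log2 fold change of 0.16 did not pass either (unadjusted p = 0.0503 and adjusted p = 0.189 in edgeR's test). Of the other factors, CPSF3 has starts of ITGB1BP1, and CPSF2 a start of NDUFB1, upstream on the opposite strand within 1000 bases. ITGB1BP1 averaged 33.9 ± 0.278 CPM after ERI2 siRNA and 34.5 ± 2.29 CPM after control siRNA (SD, n = 3 each). NDUFB1 was at 49.2, 40.1 and 43.2 CPM after ERI2 siRNA and 49.4, 51.8 and 45.9 CPM after control siRNA, and neither passed edgeR's test. A start upstream on the opposite strand within that distance was found for 3 of the 9 windows and for 17.9% of all windows. From these starts the genes of a pair run away from each other and do not overlap. Strand use in the counting was not given in the sources used here, so reads may be shared only where other transcripts of a pair overlap.

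CASP8AP2, also called FLASH, is a histone locus body protein that binds LSM11 and brings the cleavage complex to the U7 snRNP. It was at 187, 184 and 192 CPM after ERI2 siRNA, against 181, 191 and 170 CPM after control siRNA. ERI2 siRNA replicate 3 was the highest and control replicate 3 the lowest library, with control replicate 2 among the ERI2 siRNA libraries, and the log2 fold change was 0.055 (SE 0.0708, 95% interval -0.096 to 0.21, adjusted p = 0.659). With 4873 to 7074 reads in a library it had the smallest standard error of the 10.

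LSM10 and LSM11 are the ring proteins particular to the U7 snRNP, where they take the places that SNRPD1 and SNRPD2 hold in the spliceosomal rings. LSM10 was at 21.1, 16.4 and 18.7 CPM in ERI2 siRNA libraries, against 15.0, 18.7 and 18.4 CPM in control siRNA libraries. Both extremes were replicate 1 libraries, the highest from ERI2 siRNA and the lowest from control siRNA. LSM10 had the fewest reads, 527 to 691 in a library, and the widest interval (log2 fold change 0.11, SE 0.115, 95% interval -0.14 to 0.36, adjusted p = 0.581). LSM11 measured 40.8, 41.9 and 38.1 CPM after ERI2 siRNA and 37.8, 43.5 and 46.2 CPM after control siRNA, where control replicate 1 was the lowest library of all. Its log2 fold change was -0.076 (SE 0.0875, 95% interval -0.26 to 0.11, adjusted p = 0.623).

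The other ring proteins, which the U7 snRNP shares with spliceosomal particles, also showed no called change. SNRPB, SNRPD3, SNRPE, SNRPF and SNRPG had log2 fold changes from -0.085 to 0.028. In edgeR 0 of 5 passed (0 without adjustment, 0 by DESeq2 and 0 by limma-voom). Over all genes tested 8.54% passed in edgeR, and 26.5% without adjustment. SNRPD1 averaged 72.5 ± 7.50 CPM after ERI2 siRNA and 70.5 ± 11.9 CPM after control siRNA, and SNRPD2 155 ± 14.4 CPM after ERI2 siRNA and 166 ± 18.3 CPM after control siRNA (SD, n = 3 each), with adjusted p of 0.850 and 0.550. The U7 RNA itself, listed as RNU7-1, had 1 read in ERI2 siRNA replicate 2 and 0 reads in the other 5 libraries. A count of 0 allows up to 0.0950 and 0.0990 CPM in ERI2 siRNA replicates 1 and 3, and from 0.0810 to 0.105 CPM in control siRNA libraries (3 counts per library, counting error only). These limits hold for reads in the libraries and not for U7 RNA in the cells, which could not be compared with these libraries.

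ZNF473, a zinc finger protein that binds LSM11 and the SLBP complex on histone pre-mRNA, was at 40.1, 35.9 and 39.1 CPM in ERI2 siRNA libraries, against 39.0, 40.5 and 40.1 CPM in control siRNA libraries. Apart from ERI2 siRNA replicate 2, which was lowest, the libraries lay within 2 CPM of each other. The log2 fold change was -0.055 (SE 0.0769, 95% interval -0.22 to 0.11, adjusted p = 0.691), and it was 0.0024 when libraries were scaled by their total counts.

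**Figure D2:**
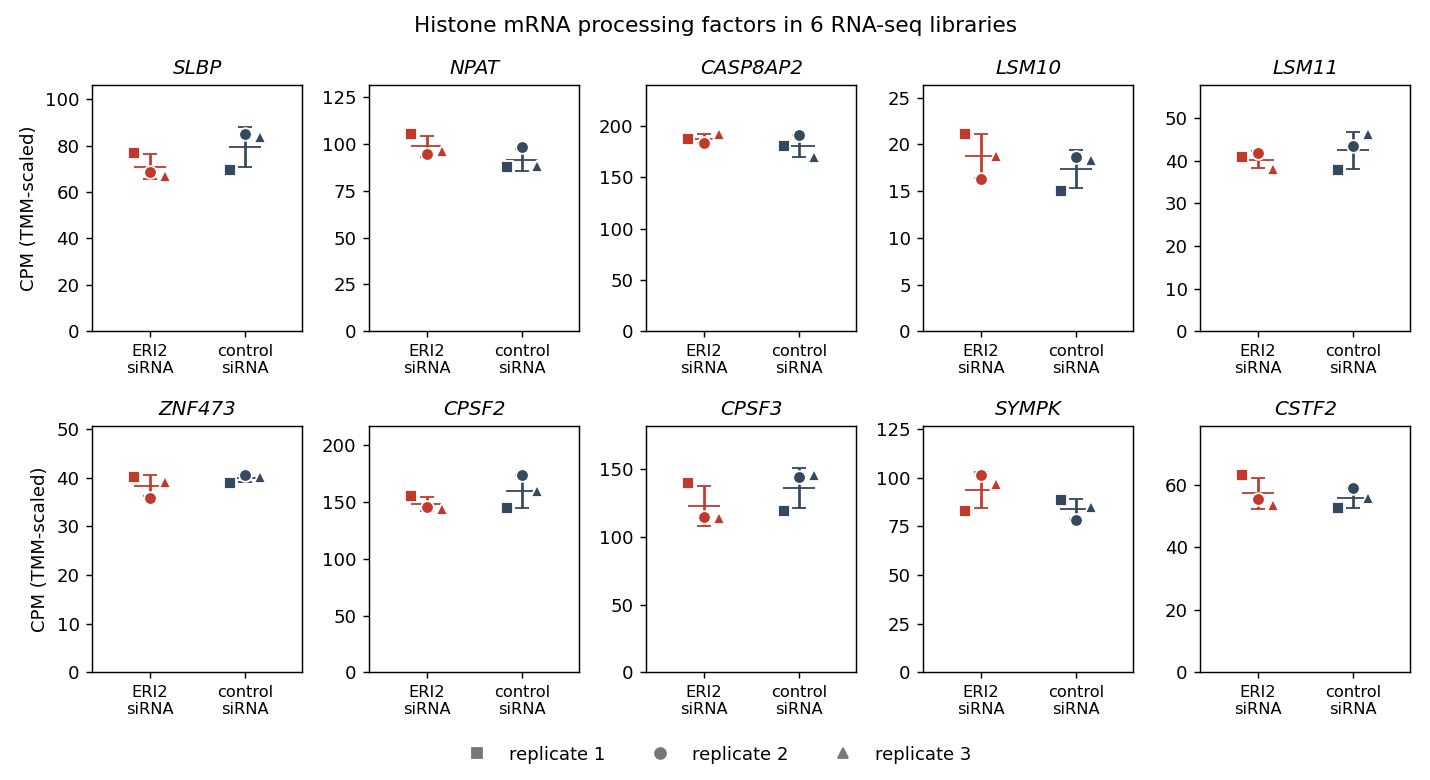
CPM of each histone mRNA processing factor (y axis, from 0, one panel per gene) in ERI2 siRNA (left) and control siRNA (right) libraries. Squares, circles and triangles are replicates 1, 2 and 3, and lines give the mean with SD. The groups overlap in all 10 panels.

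CPSF3 is the endonuclease that cuts histone pre-mRNA, CPSF2 its inactive partner, and SYMPK (symplekin) the scaffold that holds both. CPSF3 was at 140, 115 and 114 CPM after ERI2 siRNA, against 119, 144 and 145 CPM after control siRNA. Within each group replicate 1 lay apart, high with ERI2 siRNA and low with control siRNA, so that the means of 123 ± 14.8 CPM after ERI2 siRNA and 136 ± 14.7 CPM after control siRNA (SD, n = 3 each) differed by less than 1 SD (log2 fold change -0.15, SE 0.0962, 95% interval -0.36 to 0.057, adjusted p = 0.343). CPSF2 was at 156, 146 and 144 CPM after ERI2 siRNA and 145, 173 and 160 CPM after control siRNA. Control replicates 2 and 3 were again the highest libraries, followed by ERI2 siRNA replicate 1. Its log2 fold change of -0.10 (SE 0.0780, 95% interval -0.27 to 0.065, adjusted p = 0.433) did not pass. SYMPK ran the other way: ERI2 siRNA libraries had 83.1, 101 and 96.9 CPM, and control siRNA libraries 88.7, 78.2 and 84.7 CPM. ERI2 siRNA replicates 2 and 3 were the highest libraries, but replicate 1 lay below 2 of the 3 control siRNA libraries. SYMPK had the highest log2 fold change of the 10 and the smallest adjusted p (0.16, SE 0.0834, 95% interval -0.018 to 0.34, adjusted p = 0.238).

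CSTF2, an RNA-binding subunit of the cleavage stimulation factor that also joins the histone cleavage complex, was at 63.0, 55.4 and 53.4 CPM after ERI2 siRNA, against 52.6, 59.0 and 55.8 CPM after control siRNA. As for LSM10, both extremes were replicate 1 libraries. The log2 fold change was 0.037 (SE 0.0819, 95% interval -0.14 to 0.21, adjusted p = 0.811). Its paralog CSTF2T, an intronless copy with overlapping function, averaged 56.7 ± 5.48 and 62.9 ± 6.47 CPM in ERI2 siRNA and control siRNA libraries (SD, n = 3 each; log2 fold change -0.15, adjusted p = 0.318). Both genes encode similar proteins, and reads that match both may be counted for either or left out.

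The relatives of CPSF2 and CPSF3 in the Integrator complex, which cuts small nuclear RNA precursors, were INTS9 and CPSF3L (now INTS11). CPSF3L, the nuclease of that complex, rose to 62.7, 70.1 and 68.7 CPM with ERI2 siRNA, against 56.8, 53.1 and 57.3 CPM with control siRNA, without overlap (log2 fold change 0.27, SE 0.0741, adjusted p = 0.0381). INTS9 measured 20.8 ± 1.86 CPM after ERI2 siRNA and 21.4 ± 1.82 CPM after control siRNA (SD, n = 3 each; adjusted p = 0.819). The CPSF3L call depended on single libraries: the adjusted p was 0.172 without ERI2 siRNA replicate 2, 0.150 without ERI2 siRNA replicate 3, 0.133 without control replicate 2 and 0.116 without control replicate 3.

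Across libraries the 10 genes did not vary alike. The highest library exceeded the lowest by 1.13-fold (ZNF473) to 1.40-fold (LSM10), and the coefficient of variation within a group ran from 2.24% to 12.7% with ERI2 siRNA and from 2.01% to 11.6% with control siRNA. In ERI2 siRNA replicate 1, 8 of 10 genes were above their own mean over the 6 libraries, against 2 in replicate 2 and 5 in replicate 3. In control siRNA replicate 1 only 1 of 10, SYMPK, was above its mean, against 9 in replicate 2 and 6 in replicate 3. Each group's replicate 1 thus lay on the other side from its replicates 2 and 3 for SLBP, CPSF2 and CPSF3, and SYMPK showed the mirror image.

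**Figure D3:**
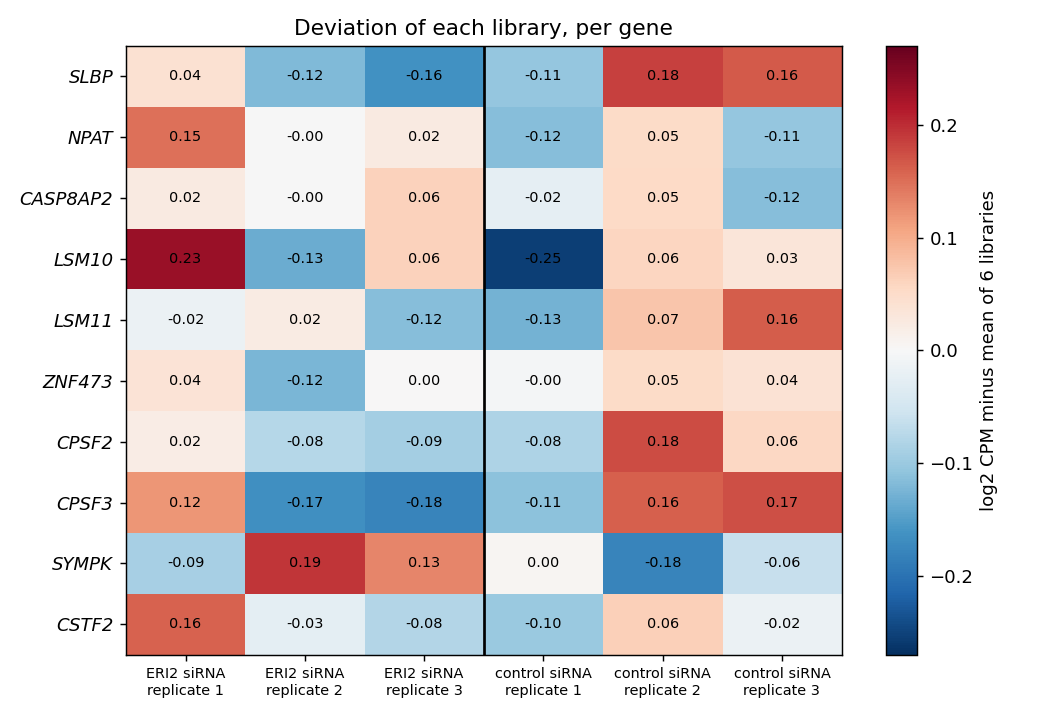
Log2 CPM of each gene (rows) in each library (columns, ERI2 siRNA left of the line, control siRNA right) minus its mean over the 6 libraries, with the value printed in each cell and red above, blue below the mean. SLBP, CPSF2 and CPSF3 are red in control replicates 2 and 3 and blue in ERI2 siRNA replicates 2 and 3, while both replicate 1 columns have the opposite colour.

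With replicates 2 and 3 alone, an alternative chosen with that structure known, 4 of 10 genes passed edgeR's test, against 28.0% of the 18915 genes tested there (13.9% higher and 14.1% lower). SLBP (log2 fold change -0.32, adjusted p = 0.00349), CPSF3 (-0.35, adjusted p = 0.00111) and CPSF2 (-0.21, adjusted p = 0.0312) were lower and SYMPK (0.28, adjusted p = 0.00851) higher. No difference from the share over all genes was tested. LSM11 (-0.17), ZNF473 (-0.11), LSM10 (-0.084), CSTF2 (-0.081), CASP8AP2 (0.054) and NPAT (0.030) did not pass there. In replicate 1 the same 4 genes differed in the opposite direction: with ERI2 siRNA SLBP was at 76.9, CPSF3 at 140, CPSF2 at 156 and SYMPK at 83.1 CPM, and with control siRNA SLBP was at 69.5, CPSF3 at 119, CPSF2 at 145 and SYMPK at 88.7 CPM. ERI2 itself was lower after ERI2 siRNA in replicate 1 as in the others. The part of culture, library preparation or sequencing in this structure was not tested. Leaving out any 1 library gave 0 of 10 in each of 6 fits, with the smallest adjusted p in edgeR's test, 0.0549, for SLBP. The share of all genes called ran from 1.93% without ERI2 siRNA replicate 3 to 14.1% without ERI2 siRNA replicate 1. Where that share is small, 0 of 10 says little about these genes. The log2 fold changes moved with the library left out. LSM10 was at 0.0036 without ERI2 siRNA replicate 1, 0.013 without control replicate 1 and 0.20 without ERI2 siRNA replicate 2. CPSF3 was at -0.26 without ERI2 siRNA replicate 1 and -0.24 without control replicate 1. Leaving out control replicate 1 put CPSF2 at -0.17 and LSM11 at -0.16. CPSF2 was at -0.039 when control replicate 2 was left out, and LSM11 at -0.026 when control replicate 3 was. Over the 6 fits SLBP ranged from -0.26 to -0.12, NPAT from 0.053 to 0.17, ZNF473 from -0.099 to -0.0098 and SYMPK from 0.10 to 0.23.

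**Figure D4:**
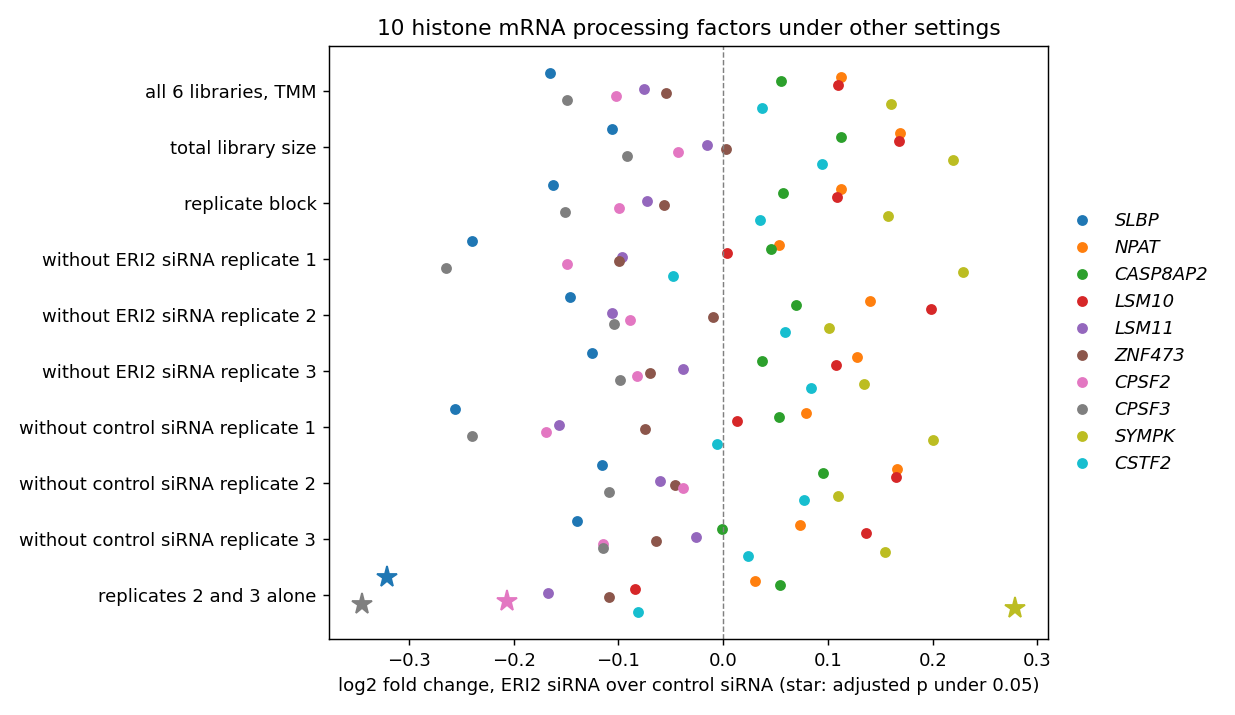
Log2 fold change of the 10 genes, ERI2 siRNA over control siRNA (x axis), with all 6 libraries and under other settings (rows). Stars, which mark an adjusted p under 0.05, appear for SLBP, CPSF2, CPSF3 and SYMPK and only with replicates 2 and 3 alone.

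Histone mRNA itself, on which these factors act, was counted as the 89 names that start with HIST1H, HIST2H, HIST3H or HIST4H. They were taken by name and include pseudogenes, such as HIST1H4PS1, HIST2H3DP1 and HIST2H3PS2. The summed level of the 89 names was 12984, 10509 and 10610 CPM in ERI2 siRNA libraries, against 8796, 10449 and 11665 CPM in control siRNA libraries. How RNA was selected for the libraries, by poly(A) tail or otherwise, was not considered here. The sum therefore covers only histone RNA that entered the libraries, and the share of histone mRNA without a tail in it is not known here. ERI2 siRNA replicate 1 was the highest and control replicate 1 the lowest library, and the rest overlapped. The difference in mean log2 level, 0.14, had p = 0.4 in an exact two-sided permutation test over the 6 libraries, which cannot go below 0.1 with 3 against 3. It was -0.064 with replicates 2 and 3 alone. Of the 52 names tested, 5 were higher and 0 lower in edgeR's test, beside 4.29% of all genes higher and 4.25% lower, and no difference from that share was tested. The 5 names were HIST3H2BB (0.49), HIST1H4J (0.48), HIST3H2A (0.83), HIST2H2AA3 (1.11), each with its log2 fold change, and the pseudogene HIST2H3PS2. The last had 15, 26 and 28 reads after ERI2 siRNA and 1, 0 and 3 reads after control siRNA. Without adjustment 18 were higher and 1 lower, beside 13.4% and 13.1% of all genes. DESeq2 called 11 higher and limma-voom 6 higher, both with 0 lower. Near-identical histone copies may share or lose reads, so calls for single histone names are uncertain, and they were not repeated with libraries left out. ERI2 siRNA replicate 1 had the highest histone sum and the third highest SLBP level, and control replicate 1 the lowest histone sum and the fourth highest SLBP level.

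**Figure D5:**
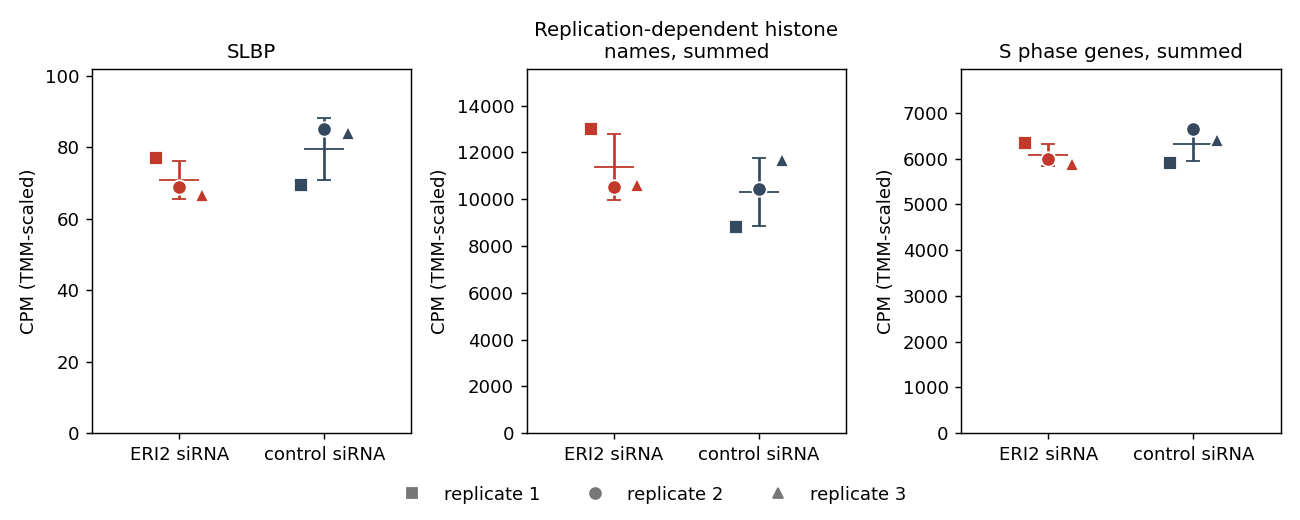
CPM of SLBP, summed CPM of the 89 replication-dependent histone names and summed CPM of 40 S phase genes (y axes, from 0) in ERI2 siRNA (left) and control siRNA (right) libraries. Symbols mark replicates 1, 2 and 3, lines the mean with SD. The groups overlap in all 3 panels.

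Among histone genes outside the S phase clusters, whose mRNAs mostly carry a poly(A) tail, 1 of 10 rose and 1 fell. Over all genes tested 4.29% were higher and 4.25% lower. Without adjustment 2 of the 10 were higher and 3 lower, beside 13.4% and 13.1% of all genes. DESeq2 called 2 higher and 2 lower, and limma-voom 1 higher and 1 lower. H2AFX, a variant that marks DNA breaks and whose mRNA can end in either way, rose to 90.1, 77.6 and 82.9 CPM with ERI2 siRNA, against 47.8, 47.4 and 63.1 CPM with control siRNA (log2 fold change 0.67, SE 0.104, adjusted p = 0.00393), and it passed without any 1 library. H2AFY2, a macroH2A variant, fell by 0.30 on the log2 scale (adjusted p = 0.0348) but did not pass without ERI2 siRNA replicate 2 (adjusted p = 0.136) or 3 (0.163), or without control replicate 2 (0.105) or 3 (0.139).

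Of 17 other cleavage and polyadenylation factors 1 rose and none fell, beside 4.29% of all genes tested higher and 4.25% lower. Without adjustment 1 was higher and 4 were lower, beside 13.4% and 13.1% of all genes. DESeq2 and limma-voom each called 1 higher and 0 lower. The factor that rose was CPSF1, the largest subunit of the poly(A) site complex. It was at 131, 146 and 155 CPM with ERI2 siRNA, against 116, 107 and 121 CPM with control siRNA (log2 fold change 0.33, SE 0.0786, adjusted p = 0.0214 in edgeR's test). It did not pass without ERI2 siRNA replicate 2 (adjusted p = 0.0890) or 3 (0.113), or without control replicate 2 (0.0832) or 3 (0.0636). The median log2 fold change of these 17 was -0.0027, that of all tested genes 0.0030, and that of the 10 histone mRNA processing factors -0.0087.

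Of 17 other factors of histone gene transcription, cap binding and elongation, 1 rose and none fell. Over all genes tested 4.29% were higher and 4.25% lower. Without adjustment 3 of the 17 were higher and 1 lower, beside 13.4% and 13.1% of all genes. DESeq2 called 3 higher and limma-voom 1 higher, both with 0 lower. NELFA, a subunit of the elongation factor NELF that halts RNA polymerase near gene starts, rose to 46.9, 47.5 and 43.7 CPM with ERI2 siRNA, against 33.3, 31.2 and 41.0 CPM with control siRNA (log2 fold change 0.39, SE 0.0980, adjusted p = 0.0269). It lost its call without ERI2 siRNA replicate 2 (adjusted p = 0.105) or 3 (0.0574) or control replicate 2 (0.107).

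Of 22 genes of histone mRNA export, translation and decay none passed edgeR's test, beside 8.54% of all genes tested. Without adjustment 4 of the 22 were higher and 3 lower, beside 13.4% and 13.1% of all genes. DESeq2 and limma-voom each called 0. The smallest p belonged to LSM5, a ring protein of the decay complex that binds oligouridylated histone mRNA, at 33.2 ± 3.38 CPM after ERI2 siRNA and 40.1 ± 3.99 CPM after control siRNA (SD, n = 3 each; log2 fold change -0.27, adjusted p = 0.0924). It passed without ERI2 siRNA replicate 1 (adjusted p = 0.0466) or control replicate 1 (0.0485). ERI1 was at 22.9, 26.5 and 22.9 CPM in ERI2 siRNA libraries, against 27.8, 30.0 and 27.2 CPM in control siRNA libraries, without overlap but with adjusted p = 0.112. ERI3 averaged 56.7 ± 3.67 CPM after ERI2 siRNA and 59.1 ± 6.32 CPM after control siRNA (SD, n = 3 each; adjusted p = 0.706).

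SLBP and CASP8AP2 are commonly counted among S phase genes. Of 40 other S phase genes, 1 fell and 1 rose: TYMS, thymidylate synthase, fell to 49.9 ± 1.90 CPM with ERI2 siRNA, against 62.8 ± 6.28 CPM with control siRNA (adjusted p = 0.0264), and UHRF1, a hemimethylated DNA reader, rose to 140 ± 4.11 CPM with ERI2 siRNA, against 113 ± 10.0 CPM with control siRNA (SD, n = 3 each; adjusted p = 0.0273). Of 51 genes of the G2 and M phases 1 rose, CDCA3, with 48.8 ± 1.61 CPM after ERI2 siRNA and 40.0 ± 0.191 CPM after control siRNA (SD, n = 3 each; adjusted p = 0.0269). These calls ended when single libraries were left out, with adjusted p of at most 0.119 for TYMS, 0.124 for UHRF1 and 0.128 for CDCA3. That held for ERI2 siRNA replicates 2 and 3 and control replicate 2 for all 3 genes, for control replicate 3 for TYMS and CDCA3, and for control replicate 1 for UHRF1. Without adjustment 2 of the 40 S phase genes were higher and 6 lower. Unadjusted, 4 of the 51 G2 and M phase genes were higher and 6 lower. Over all genes tested the shares were 13.4% and 13.1%, and 4.29% and 4.25% with adjustment. DESeq2 called 2 higher and 2 lower in each list, and limma-voom 1 higher in each and 1 S phase gene lower. Of the S phase log2 fold changes 29 were negative and 11 positive (median -0.076, against 0.0030 for all genes). That difference was not tested. The summed level of the S phase list was 6347, 5993 and 5883 CPM in ERI2 siRNA libraries, against 5901, 6639 and 6416 CPM in control siRNA libraries. Within each group its replicates stood in the same order as those of SLBP, and the part of cell cycle phase in the SLBP values was not tested.

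The 6 libraries held 29143596 to 32646277 counts with ERI2 siRNA and 30099367 to 38306631 counts with control siRNA, of which the 10 genes took from 0.0850% to 0.0900%. The chi-square per degree of freedom over genes was 13.4 and 14.6 between ERI2 siRNA replicate 1 and replicates 2 and 3, against 4.66 between replicates 2 and 3. In the control siRNA group it was 21.1 and 22.7 for the pairs with replicate 1 and 12.9 for replicates 2 and 3. All 6 pairs of replicates were above counting noise, and in both groups the pairs with replicate 1 were the farthest apart. Of 8 markers listed for HEK293 lines, among them neuronal and kidney genes, 6 reached 1 CPM. The summed level of the 8 was 872 to 1084 CPM with ERI2 siRNA, against 1112 to 1241 CPM with control siRNA, and their part in the results was not tested. Most of that sum was VIM and CDH2, with means of 736 and 166 CPM after ERI2 siRNA and 924 and 187 CPM after control siRNA. Neither passed edgeR's test. Of the 7 markers tested 2 were lower and 0 higher in edgeR's test, beside 4.25% and 4.29% of all genes. Without adjustment 5 were lower and 0 higher, beside 13.1% and 13.4%. The groups did not overlap for 5, VIM and CDH2 among them, all with ERI2 siRNA lower, beside 15.6% of all genes. DESeq2 called 4 lower and limma-voom 3 lower, both with 0 higher. The kidney genes PAX2 and LHX1 averaged 1.04 and 1.53 CPM after ERI2 siRNA and 0.762 and 1.55 CPM after control siRNA. PAX8 had at most 2 reads in a library. Of the markers of other cell types, KRT5, TP63, COL1A2, THY1, CD3E, HBB and HBG1 were at 0 in every library. Summed levels in ERI2 siRNA and control siRNA libraries were 0.660 to 0.979 and 1.38 to 1.96 CPM for 5 keratinocyte markers, 11.5 to 15.7 and 13.0 to 15.9 CPM for 6 fibroblast markers, and 2.49 to 2.80 and 2.30 to 3.52 CPM for 6 blood markers. NEFL (-0.50), INA (-0.49), EPCAM (-1.04) and COL3A1 (-1.05) fell on the log2 scale, and CD14 (0.59, adjusted p = 0.465) did not pass. Without single libraries the adjusted p reached 0.0728 for NEFL, 0.124 for INA and 0.135 for EPCAM. EPCAM also lost its call under total-count scaling (adjusted p = 0.0555) and with replicates 2 and 3 alone (0.0626). COL3A1 passed in all 15 alternatives.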

How the data were processed

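The authors deposited a table of raw read counts per gene name for 6 RNA-seq libraries, whole numbers with different totals per library. CASAVA 1.8.2, TopHat2 2.0.10, HTSeq 0.6.1p1 and build hg19 are named in the submitters' processing notes, with no role or order. Strand setting and annotation release were not given in the sources used here. Small RNA libraries were not analysed here.

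After a filterByExpr filter and TMM scaling, the deposited counts were fitted with edgeR 4.0.16 (robust quasi-likelihood) in R 4.3.3, ERI2 siRNA against control siRNA over 18843 genes. A Benjamini-Hochberg adjusted p under 0.05 was the threshold. CPM values use TMM-scaled library sizes. SE and 95% intervals come from the same fit. Alternatives were DESeq2 1.42.0, limma-voom (limma 3.58.1), other scalings and filters, a replicate block, each library left out, and replicates 2 and 3 alone. The fit was tested on simulated data.

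Members and lists, tests and the naming rule were chosen with earlier results of these data known. The rule named the 10 genes, the ERI family, U7 snRNP parts, paralogs, the NPAT neighbour ATM, and in every other list up to 6 genes past the test or else the gene with the smallest p. ITGB1BP1, NDUFB1, VIM, CDH2, PAX2, LHX1 and the 5 histone names were added after values were seen. Promoter windows and gene starts are from RefSeq (GRCh38.p14). Levels were not compared between genes, since no transcript lengths were used.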

Additional observations from a re-analysis of the deposited data

How the results depend on the processing

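The count of 0 changed genes among the 10 histone mRNA processing factors was the same under DESeq2, limma-voom, RLE, total-count and upper-quartile scaling, no count filter, a filter of 1 CPM in 3 libraries, the replicate block and each of the 6 fits that left out 1 library. It was 4 with replicates 2 and 3 alone, where 28.0% of all genes were called. That share was 1.08% with the replicate block, 1.93% to 14.1% when 1 library was left out, and 7.49% to 12.4% under the other alternatives. Over all genes, 1609 changed (809 higher, 800 lower). The count was 2429 with no count filter, 203 with the replicate block, 5292 with replicates 2 and 3 alone, and 371 to 2751 when 1 library was left out. The number of called genes in the other lists also varied over the alternatives, while the share of all genes called ran from 1.08% to 28.0%. No difference from that share was tested. It ranged from 0 to 1 for the 5 shared ring proteins (0 with all libraries and TMM) and 0 to 4 for the 6 paralogs and ATM (1 with all libraries and TMM). Other cleavage factors had 0 to 8 of 17 called (1 with all libraries and TMM), and transcription and elongation factors 0 to 4 of 17 (1 with all libraries and TMM). Export, translation and decay genes had 0 to 9 of 22 (0 with all libraries and TMM), and S phase genes 0 to 18 of 40 (2 with all libraries and TMM). G2 and M phase genes had 0 to 17 of 51 (1 with all libraries and TMM), and replication-independent histones 1 to 6 of 10 (2 with all libraries and TMM). Under total-count scaling, which moved the median of all genes to 0.06 on the log2 scale, 67.8% of calls were higher, against 50.3%. The summed histone difference was -0.064 with replicates 2 and 3 alone, and 0.035 to 0.24 when 1 library was left out. Some log2 fold changes near 0 turned sign, none of them called. With replicates 2 and 3 alone they were -0.084 for LSM10, -0.081 for CSTF2, -0.084 for SNRPB, -0.17 for SNRPG and -0.12 for SNRPD1, and under total-count scaling 0.0024 for ZNF473 and 0.015 for INTS9. When 1 library was left out, CASP8AP2 ranged from -0.00075 to 0.096, CSTF2 from -0.048 to 0.084, SNRPB from -0.068 to 0.088, SNRPD3 from -0.17 to 0.015, SNRPF from -0.16 to 0.034, SNRPG from -0.12 to 0.093, INTS9 from -0.11 to 0.027 and SNRPD1 from -0.062 to 0.18. The cause was not tested. The replicate numbers showed no sign of pairing: deviations of same-numbered libraries correlated at -0.30, -0.08 and -0.10, and 0 of 3 libraries correlated best with their own number. This check cannot decide whether libraries were paired, since deviations within a group depend on each other. With the replicate block the adjusted p was 0.0780 for NEFL, 0.0973 for INA and 0.114 for EPCAM, which ended those calls. At this depth the standard errors of the 10 genes were 0.0708 to 0.115 on the log2 scale.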
